A study of Mus musculus with 8 samples.

Results

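Skeletal muscle genes were read in mouse sciatic nerve segments. The set holds 35 genes of the sarcomere, of calcium handling and of muscle energy supply, chosen by gene symbol and not by a threshold on a measured value, out of 18194 genes that the array annotation names singly. The choice was made with earlier results of these data known. The 35 genes are covered by 58 of the 45101 probe sets. By fibre type, 14 of the 35 are fast fibre genes, 8 are slow fibre genes and 13 are expressed in both; by role, 11 belong to the thick filament, 9 to the thin filament, 5 to the Z-disc, 6 to calcium handling and 4 to energy supply.

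The study cut the sciatic nerve of adult mice at the sciatic notch and, 7 days later, took a 10 mm segment of the distal stump and the uninjured nerve of the other side. RNA of these segments was measured on 8 one-colour expression arrays, with 2 arrays each for uncut and cut nerve of control mice and for uncut and cut nerve of mutant mice. The labels call the control mice WT and the mutants c-Jun KO, and each array holds nerves pooled from 4 or 6 mice. The sources used here do not give the driver of the deletion, the alleles of the controls, the strain, the sex or the exact age. The labels name the tissue as Schwann cells, but the RNA is that of a whole nerve segment.

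Skeletal muscle contracts when myosin of the thick filament pulls on actin of the thin filament within the sarcomere, a unit bounded by Z-discs. Calcium released from the sarcoplasmic reticulum binds troponin C, which with troponin I and troponin T moves tropomyosin off actin. Fast and slow fibres build the same structures from different paralogues, so that most proteins of the sarcomere have a fast and a slow form. Nerve itself holds no skeletal muscle fibres.

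The promoters of 4 genes that stand for the fast and slow forms of the same protein are shown, because the fast and the slow gene of each pair were high on different arrays. The bases are the 250 before the transcript start in the RefSeq table (GRCm38.p6), written along the gene's own strand, with E-boxes in capitals. An E-box, CANNTG, is the kind of site bound by the myogenic factors and reads the same on both strands. Mylpf, the fast regulatory light chain of myosin, lies at chr7:127211358-127211607 (plus strand), its slow counterpart Myl2 at chr5:122092474-122092723 (plus strand), the fast troponin C gene Tnnc2 at chr2:164779735-164779984 (minus strand) and the slow one, Tnnc1, at chr14:31208062-31208311 (plus strand).
Mylpf: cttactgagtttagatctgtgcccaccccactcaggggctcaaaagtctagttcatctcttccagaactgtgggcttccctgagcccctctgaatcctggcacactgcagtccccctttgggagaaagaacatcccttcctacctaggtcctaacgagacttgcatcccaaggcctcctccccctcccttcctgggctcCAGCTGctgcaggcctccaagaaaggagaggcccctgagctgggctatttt
Myl2: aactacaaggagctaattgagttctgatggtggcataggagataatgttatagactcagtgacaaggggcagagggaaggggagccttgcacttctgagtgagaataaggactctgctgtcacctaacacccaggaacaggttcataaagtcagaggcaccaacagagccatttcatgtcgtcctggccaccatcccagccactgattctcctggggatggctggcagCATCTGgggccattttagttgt
Tnnc2: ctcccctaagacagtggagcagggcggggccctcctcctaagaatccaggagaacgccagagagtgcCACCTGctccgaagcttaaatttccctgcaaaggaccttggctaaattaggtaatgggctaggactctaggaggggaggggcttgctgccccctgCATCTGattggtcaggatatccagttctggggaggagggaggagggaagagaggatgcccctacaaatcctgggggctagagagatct
Tnnc1: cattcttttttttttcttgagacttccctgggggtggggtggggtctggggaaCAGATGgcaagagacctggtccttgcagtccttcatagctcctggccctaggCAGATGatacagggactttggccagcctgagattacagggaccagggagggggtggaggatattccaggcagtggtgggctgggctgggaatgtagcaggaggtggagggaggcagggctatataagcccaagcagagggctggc

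Mylpf and Myl2 hold 1 E-box each in this window, and Tnnc2 and Tnnc1 hold 2 each. Of the 29 member genes matched in the table, 24 (82.8%) hold at least 1 E-box, against 66.1% of 27025 promoters. All 8 slow genes hold one, as do 7 of 10 matched fast genes and 9 of 11 genes of both fibre types. A MEF2-like run, CTANNNNTAG, which reads the same on both strands and whose overlap with E-boxes was not counted, is in 1 of the 29 (3.45%), against 3.23% of all promoters, and in none of the 4 windows shown. A match is a run of letters and not a measured binding site. Actn3, Myoz1, Neb, Tcap, Tnni2 and Tnnt3 were not matched.

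The arrays were alike in overall signal, with medians of 6.59 to 6.65 on the log2 scale, and the 2 arrays of a group correlated with r of 0.993 to 0.995 across all genes. For Jun, the targeted gene, the mutant cut arrays read 10.39 and 10.80 and the control cut arrays 11.88 and 11.96 (log2 difference -1.33, limma adjusted p = 0.00608), while the 4 uncut arrays lay between 9.58 and 9.70. The sources used here do not say whether its probe set lies in the deleted sequence. Milk protein genes stood apart from all else, with Csn2 between 3.50 and 13.01 across the 8 arrays and above 7 on both mutant uncut arrays, both control cut arrays and mutant cut replicate 2. Each group has 2 arrays, which limits the precision of everything that follows.

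Cut nerve carried more RNA of most muscle genes than uncut nerve in both genotypes. The slow fibre genes were an exception in control nerve, where 7 of 8 changed below 0 and 1 of them was called. A gene was called where limma's Benjamini-Hochberg adjusted p over all 18194 genes was under 0.05. In control mice 20 of the 35 muscle genes rose, 1 fell and 14 did not pass, where 15.6% of all genes rose, 12.1% fell and 27.7% were called in either direction. In mutant mice 24 rose, 1 fell and 10 did not pass, where 12.3% of all genes rose, 12.9% fell and 25.2% were called in either direction. The median log2 change of the 35 was 1.28 in control and 1.54 in mutant nerve, against 0.03 and -0.03 over all genes. There were 19 genes that rose in both genotypes. All 4 cut arrays lay above all 4 uncut arrays for 24 of the 35, against 20.6% of all genes, and below them for 2 (Casq2 and Tpm2), against 18.2%. In such bulk RNA, more cells of a type and more RNA per cell cannot be told apart.

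**Figure D1:**
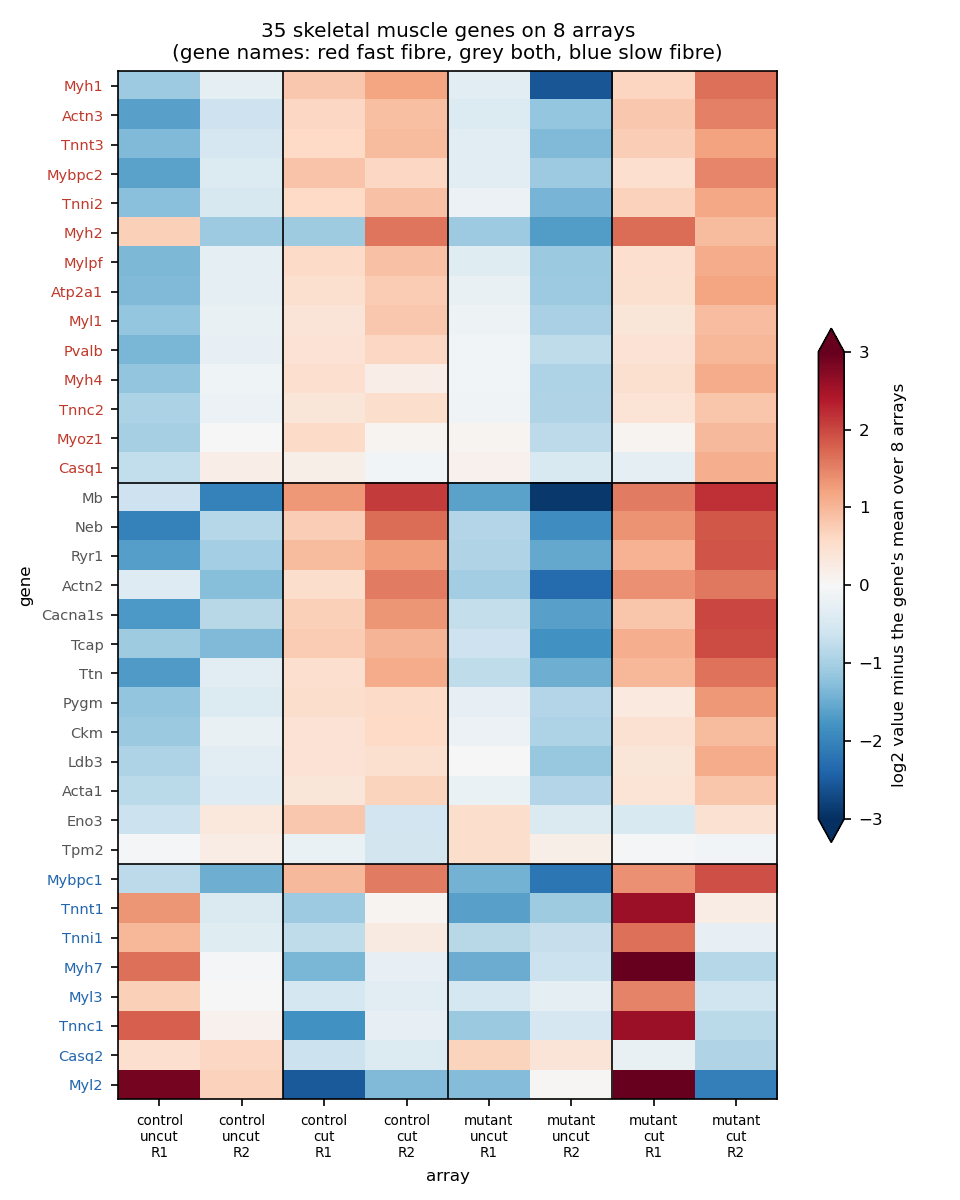
Each row is 1 muscle gene and each column 1 array; colour gives the log2 value minus that gene's mean over the 8 arrays, and the colour scale ends at 3 in either direction. Most fast genes and genes of both fibre types are blue on the 4 uncut arrays and red on the 4 cut arrays, while 6 of the 8 slow genes are reddest on mutant cut replicate 1.

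In the thin filament, 5 of 9 genes rose in control and 6 of 9 in mutant nerve, and none fell. For this and the other roles below, 15.6% of all genes rose in control and 12.3% in mutant nerve. Tnni2, the fast inhibitory subunit of troponin, read 11.44 and 12.20 in control uncut, 13.28 and 13.55 in control cut, 12.50 and 11.28 in mutant uncut and 13.38 and 13.83 in mutant cut nerve (log2 values, replicates 1 and 2). Every cut array was above every uncut array. It rose by 1.60 in control (SE 0.39, limma adjusted p = 0.0158) and by 1.71 in mutant nerve (0.0129), which is 3.02-fold and 3.28-fold. Tnnt3, the fast subunit that anchors troponin to tropomyosin, read 11.45, 12.27, 13.37, 13.71, 12.42, 11.44, 13.51 and 13.97 in the same order. It too had no overlap between cut and uncut arrays and rose by 1.68 and 1.81 (SE 0.36, adjusted p = 0.00871 and 0.00701).

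Neb, the giant protein that runs along the thin filament, read 8.40 and 9.57 in control uncut, 11.17 and 12.10 in control cut, 9.55 and 8.56 in mutant uncut and 11.77 and 12.30 in mutant cut nerve. It had the largest rise of the 9 thin filament genes in both genotypes, 2.64 and 2.98 (SE 0.47, limma adjusted p = 0.00366 and 0.0024), and its cut and uncut arrays did not overlap. Acta1, skeletal actin itself, rose by 1.11 and 1.15 (SE 0.25, adjusted p = 0.0118 and 0.0111).

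The slow troponin genes did not follow in control nerve. For mutant nerve their changes were all above 0, though only that of Tnnt1 passed. Tnni1, the slow form of troponin I, read 8.98 and 7.61 in control uncut, 7.23 and 8.25 in control cut, 7.15 and 7.28 in mutant uncut and 9.64 and 7.74 in mutant cut nerve. The highest value was that of mutant cut replicate 1 and the next that of control uncut replicate 1, so that cut and uncut arrays overlapped. Within mutant nerve alone both cut arrays of Tnni1 were above both uncut arrays. Its change was -0.56 in control (SE 0.63, limma adjusted p = 0.591), and for the mutant it was 1.47 (adjusted p = 0.134). Tnnc1 changed by -2.00 and 1.70 without passing. Tnnt1, the slow troponin T, changed by -0.95 in control nerve and rose by 2.74 in mutant nerve (SE 0.80, adjusted p = 0.0367).

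In the thick filament, 5 of 11 genes rose in control and 8 of 11 in mutant nerve. Mylpf read 11.51 and 12.57 in control uncut, 13.42 and 13.73 in control cut, 12.50 and 11.75 in mutant uncut and 13.36 and 13.97 in mutant cut nerve. Its groups did not overlap between cut and uncut nerve, and it rose by 1.53 and 1.54 (SE 0.37, limma adjusted p = 0.016 and 0.0172). Myl2, the slow form of the same light chain, read 10.60 and 8.42 in control uncut, 5.21 and 6.41 in control cut, 6.43 and 7.77 in mutant uncut and 11.35 and 5.67 in mutant cut nerve. The arrays of mutant cut nerve held the highest and the second lowest value of the 8. Its change was -3.70 in control (SE 1.56, adjusted p = 0.122), and for the mutant it was 1.41 (adjusted p = 0.576).

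Mybpc1, a myosin binding protein C classed here with the slow genes, went with the fast ones. It read 8.83, 8.17, 10.61 and 11.19 on the control arrays (uncut, then cut) and 8.21, 7.47, 11.01 and 11.56 on the mutant arrays. All cut arrays were above all uncut arrays, and it rose by 2.40 in control (SE 0.33, limma adjusted p = 0.000963) and in mutant animals by 3.44 (adjusted p = 0.000166). Myh1, the fast 2X heavy chain, read 10.17 and 10.99, then 12.07 and 12.44 in control nerve, and 10.93 and 8.69, then 11.90 and 12.92 in mutant nerve. Cut and uncut arrays did not overlap, yet the change of 1.67 in control nerve did not pass (SE 0.65, adjusted p = 0.0958), while that of 2.60 in mutant nerve did (adjusted p = 0.0202). Ttn, the molecular spring titin, rose by 1.83 and 2.42.

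**Figure D2:**
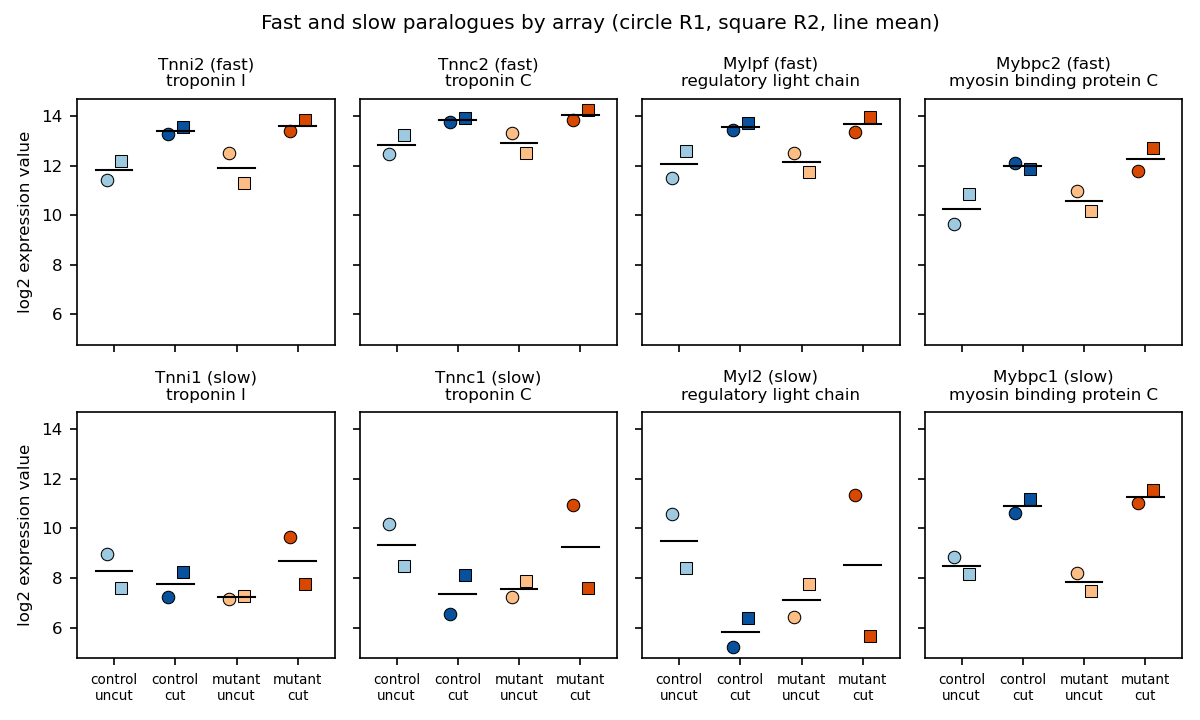
Log2 expression values on the 8 arrays for 4 proteins with a fast form (top row) and a slow form (bottom row); circles are replicate 1, squares replicate 2, and lines group means (n = 2 each). The fast forms separate cut from uncut arrays, whereas Tnni1, Tnnc1 and Myl2 are highest on mutant cut replicate 1 and next highest on control uncut replicate 1; Mybpc1 separates cut from uncut like the fast forms.

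At the Z-disc, 3 of 5 genes rose in control and 4 of 5 in mutant nerve, and for all 5 the cut arrays lay above the uncut arrays. Actn2, the alpha-actinin that crosslinks thin filaments there, read 8.49 and 7.60 in control uncut, 9.39 and 10.43 in control cut, 7.83 and 6.55 in mutant uncut and 10.24 and 10.44 in mutant cut nerve. It rose by 1.86 in control (SE 0.47, limma adjusted p = 0.019) and in mutant animals by 3.15 (adjusted p = 0.00186). Tcap, which caps titin at the Z-disc, read 9.49, 9.24, 11.32 and 11.59 on the control arrays and 9.93, 8.74, 11.65 and 12.53 on the mutant arrays, uncut before cut. It rose by 2.09 and 2.75 (SE 0.39, adjusted p = 0.00448 and 0.00134). Actn3, the fast fibre actinin, rose by 1.88 and 1.95, whereas Myoz1 changed by 0.83 and 0.89 and did not pass.

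Of the 6 calcium handling genes 4 rose and 1 fell in control nerve, and 3 rose and 1 fell in mutant nerve. Over all genes 12.1% fell in control and 12.9% in mutant nerve, so 1 fall of 6 is near these shares. Ryr1, the calcium release channel of the sarcoplasmic reticulum, read 8.51 and 9.15 in control uncut, 11.12 and 11.42 in control cut, 9.28 and 8.65 in mutant uncut and 11.22 and 12.05 in mutant cut nerve. The gap between its highest uncut and lowest cut array spans from 9.28 to 11.12, and it rose by 2.44 and 2.67 (SE 0.32, limma adjusted p = 0.000819 and 0.000604), or 5.43-fold and 6.37-fold. Cacna1s, the voltage sensor that opens this channel, read 6.74, 7.64, 9.19 and 9.79 on the control arrays and 7.74, 6.83, 9.30 and 10.47 on the mutant arrays, uncut before cut. It rose by 2.30 and 2.60 (SE 0.46, adjusted p = 0.0066 and 0.00425).

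The fall was that of Casq2, the calcium-storing calsequestrin of slow and cardiac muscle. It read 10.27 and 10.39 in control uncut, 9.13 and 9.35 in control cut, 10.43 and 10.14 in mutant uncut and 9.55 and 8.86 in mutant cut nerve. All cut arrays were below all uncut arrays, and it fell by 1.09 in control (SE 0.21, limma adjusted p = 0.00603) and in mutant animals by 1.08 (adjusted p = 0.00722). Casq1, its fast fibre paralogue, changed by 0.32 and 0.56 and did not pass.

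Of the 4 energy genes 3 rose in each genotype. Mb, the oxygen store myoglobin, had the largest rise of all 35 genes in both genotypes. It read 10.60 and 9.20 in control uncut, 12.52 and 13.31 in control cut, 9.62 and 8.32 in mutant uncut and 12.77 and 13.40 in mutant cut nerve. With no overlap between cut and uncut arrays it rose by 3.02 (SE 0.54, limma adjusted p = 0.00383) and 4.11 (adjusted p = 0.000939), or 8.09-fold and 17.3-fold. Pygm, the phosphorylase that breaks down muscle glycogen, read 9.18, 9.96, 10.90 and 10.93 on the control arrays and 10.12, 9.49, 10.66 and 11.67 on the mutant arrays, uncut before cut. It rose by 1.35 and 1.36 (SE 0.36, adjusted p = 0.0247 and 0.0261). Eno3, the muscle enolase, changed by 0.28 and -0.04.

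By fibre type, 9 of 14 fast genes rose in control and 11 of 14 in mutant nerve, none fell, and all 14 changes were above 0 in both genotypes, with medians of 1.37 and 1.51. Of the 13 genes of both fibre types, 10 and 11 rose and none fell, with medians of 1.83 and 2.42. Of the 8 slow genes 1 rose and 1 fell in control nerve, with a median change of -1.02, and 2 rose and 1 fell in mutant nerve, with a median of 1.59. Over all genes 15.6% rose and 12.1% fell in control nerve, and 12.3% rose and 12.9% fell in mutant nerve. The slow counts in control nerve were near these shares.

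**Figure D3:**
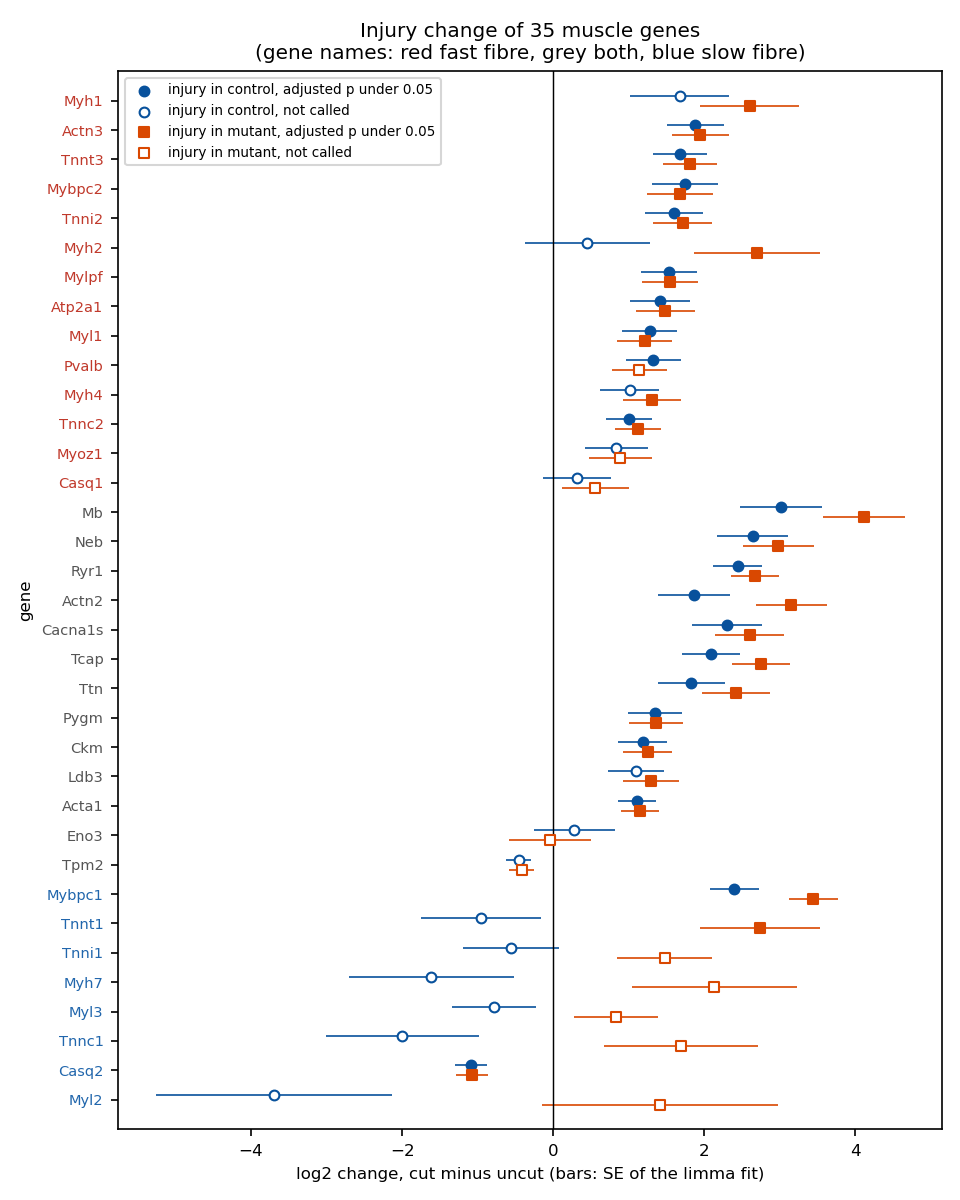
Log2 change from uncut to cut nerve of each muscle gene in control (blue circles) and mutant mice (orange squares), with the standard error of the limma fit; filled symbols have an adjusted p under 0.05. All 14 fast genes lie to the right of 0 in both genotypes, whereas 7 of 8 slow genes lie to the left in control and 7 of 8 to the right in mutant nerve, with standard errors of up to 1.56.

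The muscle genes varied far more between the 2 arrays of a group than other genes did. Their median within-group SD was 0.55, against 0.12 over all genes, and 33 of the 35 lay above the 95th percentile of all genes. The slow genes varied most, with a median within-group SD of 1.02 and a range of 0.28 to 2.24. The median was 0.54 for the fast genes, which ran from 0.42 to 1.19, and 0.54 for the genes of both fibre types.

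Within a group most muscle genes of a fibre type moved together, and most slow genes did not move as most fast ones did. In control uncut nerve 13 of 14 fast genes were higher in replicate 2, with a median difference of replicate 1 minus replicate 2 of -0.96, while 7 of 8 slow genes were higher in replicate 1, with a median of 1.52. In mutant cut nerve 13 of 14 fast genes were again higher in replicate 2 (median -0.62) and 7 of 8 slow genes in replicate 1 (median 2.22). The fast exception was Myh2, the 2A heavy chain, in both groups (1.81 and 0.73). Of the genes of both fibre types, Mb (1.40), Actn2 (0.89) and Tcap (0.25) were higher in replicate 1 of control uncut nerve, and 10 in replicate 2. In mutant uncut nerve all 14 fast genes were higher in replicate 1 (median 0.81) and 6 of 8 slow genes in replicate 2 (median -0.41). In control cut nerve the signs did not differ, with medians of -0.27 for fast and -1.07 for slow genes. Over all genes the medians of the same differences lay between -0.01 and 0.05. Mutant cut replicate 2 was the highest array for 13 of 14 fast genes and mutant cut replicate 1 for 6 of 8 slow genes. Control uncut replicate 1 was the lowest array for 10 of 14 fast genes and for none of the slow ones.

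**Figure D4:**
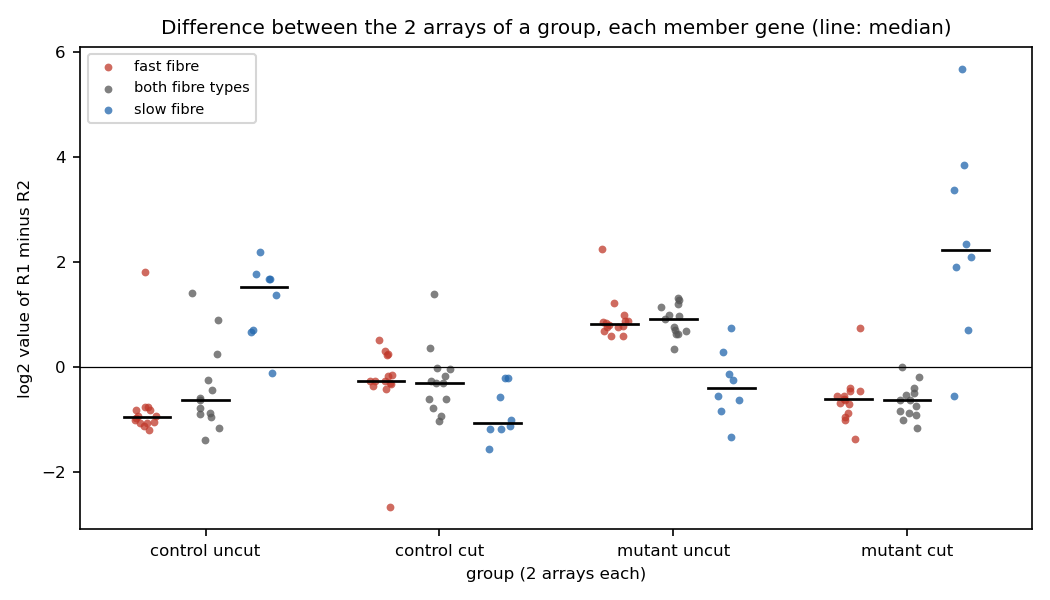
Each point is 1 muscle gene and gives its log2 value on replicate 1 minus that on replicate 2 of the same group; black lines are medians. In control uncut and mutant cut nerve 7 of 8 slow genes lie above 0 and 13 of 14 fast genes below it, and the highest slow gene of mutant cut nerve reaches 5.68 (Myl2).

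The 2 arrays on which the slow genes were highest within their group by the widest median margins weighed on these changes. Each was also the lower array of its group for 13 of 14 fast genes. With control uncut replicate 1 and mutant cut replicate 1 left out, a choice made after seeing the data, the median change of the 8 slow genes was -0.60 in control and 0.11 in mutant nerve, with 1 rising and 2 falling in control and 1 rising and 1 falling in mutant nerve. The fast genes then had medians of 0.94 and 1.84, with 1 and 12 of 14 rising, where 9.94% and 8.09% of all genes rose in that fit, and the genes of both fibre types had 1.13 and 2.74, with 7 and 11 of 13 rising. Over the 35 genes 11 were then called in control and 25 in mutant nerve, against 17.1% and 17.2% of all genes. With each of the 8 arrays left out in turn, 7 calls in control nerve were made in every fit (Actn3, Casq2, Mb, Mybpc1, Neb, Ryr1 and Tcap). In mutant nerve 11 were (Actn2, Actn3, Cacna1s, Casq2, Mb, Mybpc1, Neb, Ryr1, Tcap, Tnnt3 and Ttn). The number called in control nerve dropped to 8 without control uncut replicate 1 and also without control cut replicate 2, and that in mutant nerve to 11 without mutant uncut replicate 2. With limma's trended and robust variance it was 11 in control and 12 in mutant nerve.

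The balance of fast to slow forms was compared directly in 10 pairs of paralogues, as the log2 value of the fast gene minus that of the slow gene, in 4 cut against 4 uncut arrays. The 70 relabellings of an exact permutation test allow no p below 0.0286. They took the genotypes together, so differences between genotypes are part of the spread behind each p. No pair passed after Benjamini-Hochberg adjustment over the 10 pairs, of which 3 share the values of Myh7. Over both genotypes the fast minus slow difference was higher in cut nerve for 9 of 10 pairs, but the genotypes were not alike: it was higher for 9 in control and for 6 in mutant nerve. For troponin I it was higher by 1.20 (two-sided exact permutation p = 0.257, adjusted p = 0.367), with 2.15 in control and 0.24 in mutant nerve. For the regulatory light chain it was higher by 2.68 (exact permutation p = 0.2, adjusted p = 0.367), with 5.23 in control and 0.13 in mutant nerve. In mutant nerve the difference was lower after the cut for troponin T (-0.93), troponin C (-0.57) and the pair of Myh4 and Myh7 (-0.82), where all 3 were higher after the cut in control nerve, by 2.63 for troponin T and also for Myh4 and Myh7. Calsequestrin was the only pair without overlap between cut and uncut arrays, with Casq1 minus Casq2 higher by 1.52 in cut nerve (exact permutation p = 0.0286, the smallest possible, adjusted p = 0.286). There Casq2 fell by 1.09 in control and 1.08 in mutant nerve, while Casq1 changed by 0.32 and 0.56 without a call. Casq2 was highest on mutant uncut replicate 1, where 6 of 8 slow genes were highest on mutant cut replicate 1. Myosin binding protein C went the other way, with Mybpc2 minus Mybpc1 lower in cut nerve (-1.21, exact permutation p = 0.0857, adjusted p = 0.367).

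No muscle gene differed between the genotypes by the test. In cut nerve 0 of 35 were called, where 0.808% of all genes were, with 1 at an unadjusted p under 0.05 and a lowest limma adjusted p of 0.612 (Tnnt1). In uncut nerve 0 were called, as for all genes (0.0%), with 0 at an unadjusted p under 0.05. The difference between the injury changes of mutant and control mice was called for 0 of 35, where 0.181% of all genes were, with 4 at an unadjusted p under 0.05 and a lowest adjusted p of 0.518, again for Tnnt1. The injury change of mutant minus that of control mice was above 0 for all 8 slow genes, with a median of 2.86 and a lowest value of 0.01 (Casq2). It was above 0 for 11 of 14 fast genes (median 0.09) and for 12 of 13 genes of both fibre types (median 0.23). Without the 2 arrays named above the medians were 0.98 for slow genes (7 of 8 above 0), 0.94 for fast genes (14 of 14) and 0.91 for genes of both fibre types (13 of 13). For Myl2 it was 5.11 (limma adjusted p = 0.826), and 1.19 without those arrays. Those arrays were chosen for high slow signal, and each was the lower of its group for 13 of 14 fast genes. Leaving them out moves the slow median down and the fast median up by that choice, so the closeness of these medians says nothing about genotype.

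Group by group, both mutant uncut arrays were below both control uncut arrays for 6 of 8 slow genes, against 10.6% of all genes, and for 0 of 14 fast genes. In cut nerve both mutant arrays were above both control arrays for 1 of 8 slow and 0 of 14 fast genes, against 12.9% of all genes. The number of calls for genotype in cut nerve was 1 without mutant cut replicate 2, that of Myl3, the slow essential light chain (log2 difference 1.91, limma adjusted p = 0.0378), and its injury changes then differed between genotypes by 2.66 (adjusted p = 0.0446). That fit leaves mutant cut nerve with replicate 1 alone, whose spread is taken from the other groups.

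Most genes with more than 1 probe set gave a single direction. Of the 12 such genes 9 had all their probe sets changed in the same direction in both genotypes, without regard to the test. The others were Tpm2, Myh1 and Myl3. For Myl3 the direction differed between genotypes: its brightest probe set changed by -0.78 in control and 0.83 in mutant nerve. Others of its probe sets changed by -1.79 and 1.42 and by -1.18 and 0.49. Tpm2, a tropomyosin that smooth muscle also makes, was the clearest exception. Its brightest probe set changed by -0.46 and -0.42 and was not called. Another of its probe sets read 9.34 and 9.44 in control uncut, 11.12 and 12.23 in control cut, 9.42 and 7.95 in mutant uncut and 11.88 and 12.30 in mutant cut nerve. There it rose by 2.28 and 3.40 (limma adjusted p = 0.00898 and 0.00147 over probe sets). For Myh1, a further probe set rose by 1.99 and 2.75 (limma adjusted p = 0.0436 and 0.0125 over probe sets), while the remaining one stayed between 4.98 and 5.33 on all arrays. For Myh7, the slow heavy chain, a probe set shared with the cardiac gene Myh6 had the same order at the top, with 9.19 on mutant cut replicate 1 and 8.04 on control uncut replicate 1 and no more than 6.60 elsewhere.

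Other muscle genes moved with the set. Of 49 measured genes of mature fibres outside it, 33 rose in control and 36 in mutant nerve, and none fell. Over all genes 15.6% rose and 12.1% fell in control nerve, and 12.3% rose and 12.9% fell in mutant nerve. The largest changes among them were those of Sln, a small inhibitor of the calcium pump (4.83 and 5.26, limma adjusted p = 0.00049 and 0.000366), and Trim63, the ubiquitin ligase of muscle wasting (4.31 and 4.92), followed by Lmod2 and Cacng1. Of 21 measured myogenic, embryonic and denervation genes 9 rose in control and 11 in mutant nerve, and 1 fell in each. Chrna1, the acetylcholine receptor subunit that denervated fibres make in quantity, read 6.26 and 6.59 in control uncut, 10.37 and 11.80 in control cut, 6.13 and 6.28 in mutant uncut and 10.95 and 11.73 in mutant cut nerve. It rose by 4.66 and 5.14 (adjusted p = 0.000106 and 7.15e-05), beyond any of the 35 genes. Ankrd1 (5.84 and 6.24), Myf6 (5.17 and 5.47) and Myog (3.68 and 4.01), the last 2 being myogenic transcription factors, rose likewise. Rapsn, which clusters the receptor at the synapse, fell by 0.91 and 0.87.

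Markers of other cells were read beside these. Of 9 heart markers none rose, and 7 lay below the array median on all 8 arrays; Myh6 stayed between 3.50 and 3.95, and Tnni3, cardiac troponin I, fell by 1.13 and 0.87. The mean level of the 9 was 5.33 to 5.38 in control uncut, 5.19 to 5.24 in control cut, 5.38 in mutant uncut and 5.12 to 5.18 in mutant cut nerve. Of 13 smooth muscle and mural markers 6 fell in each genotype and none rose, where 12.1% of all genes fell in control and 12.9% in mutant nerve. The mean level of these 13 markers was 9.82 to 10.23 in control uncut and 9.21 to 9.54 in control cut nerve, and 10.14 to 10.31 and 9.52 to 9.64 in the mutant. Of 5 measured adipocyte markers 3 fell in each genotype. All 6 macrophage markers rose in both, and among 7 measured Schwann cell markers 2 rose and 3 fell in control nerve and 3 rose and 3 fell in mutant nerve. Mbp, a myelin protein, was the 1 gene of these lists called for genotype in cut nerve (0.99 higher in the mutant, limma adjusted p = 0.018). The part of these cell types in the change of muscle genes was not tested.

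**Figure D5:**
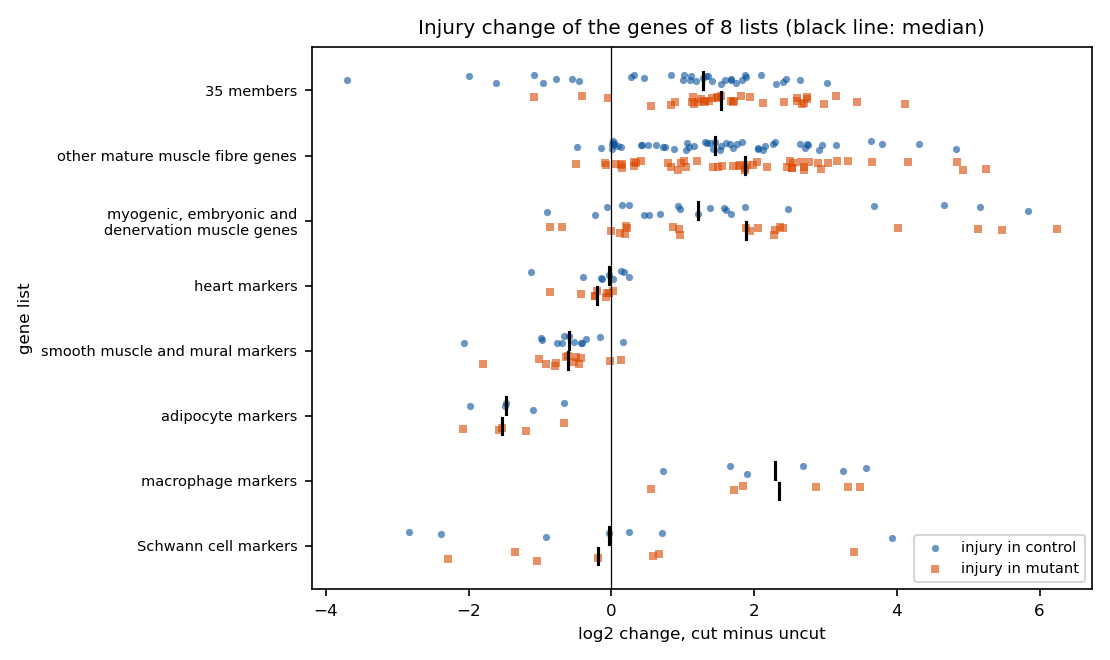
Log2 change from uncut to cut nerve of every measured gene of 8 lists, in control (blue circles) and mutant mice (orange squares); black lines are medians. The muscle lists have medians between 1.21 and 1.88, while most heart markers lie close to 0, smooth muscle and adipocyte markers mostly below it and all macrophage markers above it.

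The genes most like the set over the 8 arrays were also muscle genes for the most part. Among 4240 genes outside it with an SD of at least 0.3, Myom1, the M-band protein that ties thick filaments together, had the highest Pearson r with the array medians of the 35 genes (r = 0.999). The other 9 were Trdn, Cmya5, Ccng1, Tmod4, Itgb1bp2, Myh8, Srl, Myom2 and Hjv, with r from 0.986 to 0.994. Myom1 read 8.35 and 9.07 in control uncut, 10.11 and 10.23 in control cut, 9.12 and 8.25 in mutant uncut and 10.23 and 10.76 in mutant cut nerve. Ccng1, a cyclin, had the smallest rise of the 10 in control nerve (0.81, limma adjusted p = 0.00412). A second ranking, against Myl2, was chosen after the values of that gene were seen. It left out probe sets naming 1 of the 35 genes alone. The nearest of its 8061 probe sets were 2 of Tpm3 (r = 0.954 and 0.933), the gene of slow tropomyosin. The second of these read 9.32, 8.27, 7.57 and 8.19 on the control arrays and 8.21, 8.20, 10.29 and 7.93 on the mutant arrays, uncut before cut, so it too was highest on mutant cut replicate 1 and next on control uncut replicate 1. Next came a probe set shared by Myh7 and Myh6 (r = 0.908). The rest of the 10 nearest, from Gjc3 (r = 0.869) and Spcs1 (0.821) down to Zcchc18 (0.771), named genes outside the muscle lists used here. These correlations describe the same 8 arrays and carry no test.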

How the data were processed

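Per the labels' protocols, biotinylated cRNA was made from RNA isolated with a RiboPure kit. Each deposited number is on the log2 scale, with RMA and affy named in the submitters' processing notes. The sources used here give no versions, scan dates or detection calls, so array batches were not tested. RMA equalises arrays and compresses differences of dim probe sets.

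Genes were named from the platform annotation: 34958 probe sets have 1 symbol, 932 several and 9211 none, and only those with 1 were used. A gene was represented by its probe set with the highest mean. No filter on low values was applied in the main analysis, since genes that pass only where they are high would have had to differ; all 35 muscle genes pass such a filter. With R 4.3.3 and limma 3.58.1 the 4 group means were fitted over 8 arrays (4 residual and 4.27 prior degrees of freedom), with 5 two-sided contrasts adjusted over 18194 genes. The code was tested on simulated data. Fast minus slow differences were taken within an array and only their change between arrays was read, since levels of different probe sets are not comparable.

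The muscle genes, the marker lists, the pairs and the rule for the genes described in full were chosen with earlier results of these data known. The rule took the 2 genes of each role with the largest absolute mean injury change, the troponin I and regulatory light chain pairs, any muscle gene called for genotype, up to 4 called genes of each other list and the 10 genes most like the set. Other genes with values were chosen after these were seen. Alternatives were averaging all probe sets that share a symbol, testing probe sets singly, taking unsuffixed ones, a filter on low values, median centring, quantile normalisation, a trended and robust variance, array weights, fits to the 4 arrays of a comparison, the replicate number as a block, and leaving out arrays 1 at a time. The design text calls the 2 arrays of a group independent samples of pooled mice. Same-numbered arrays were not taken as pairs, since the sources used here do not say whether they share a pool. The correlation of replicate differences over all genes between cut and uncut nerve was 0.166 in control and 0.160 in mutant mice. Between groups of different genotype it ran from 0.0323 to 0.275. Such correlations cannot settle whether pools are shared.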

Additional observations from a re-analysis of the deposited data

How the results depend on the processing

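The numbers of muscle genes called after injury, 21 in control and 25 in mutant nerve, stayed within 1.5 times of these under another probe set summary, a filter on low values, other centring or normalisation, array weights and only the 4 arrays compared. With a trended and robust variance they were 11 and 12. Without the 2 arrays of high slow fibre signal, added after seeing the data, they were 11 and 25. With 1 array left out they ran from 8 to 23 and from 11 to 26, and the calls for genotype in cut nerve and for the difference of injury changes from 0 to 1. With the replicate number as a block they were 21 and 25, and with genotype and number together as a block 21 and 22; the block made no call for genotype and none among the 10 pairs, where its smallest p is 0.125.

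Of the 14 genes described in full, values after injury kept their direction and side of the threshold in 263 of 280 cases under other settings and in 196 of 224 with 1 array left out; 11 and 20 lost the call. The injury change of Tnni1 in control nerve became 0.13 without the 2 arrays, and ran from -1.24 to 0.13 with 1 array left out. That of Myl2 in mutant nerve became -1.43 and ran from -1.43 to 4.25, and its genotype difference in cut nerve became -0.13 and ran from -0.13 to 5.54. That of Myh1 in mutant nerve was -0.13 on its unsuffixed probe set. Of 742 genotype and interaction values of the 14 genes under alternatives 0 were called and 71 had the other sign. In no setting did a fast and slow pair pass; with 1 array left out the smallest possible exact permutation p is 0.0571. The cause of these shifts was not tested beyond the arrays named. With 2 arrays a group even large changes of slow fibre genes missed the threshold, such as -3.70 for Myl2 (SE 1.56) and -2.00 for Tnnc1 (SE 1.02) in control nerve, and the SE of a difference between injury changes reached 2.21.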
